A study of Danio rerio with 30 samples.

Results

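The 9 genes described here, plp1a, plp1b, mbpa, mbpb, mpz, olig1, olig2, myrf and sox10, encode the main myelin proteins of the zebrafish and the transcription factors that act in the cells that make myelin. They were chosen by name, as the rows of the deposited transcript table whose symbol, without its transcript suffix, is a listed gene. They are 9 of 31846 gene symbols and hold 34 of 59876 transcript rows, and all 9 were among the 18543 genes with enough reads to be tested. Each symbol stands for 1 gene ID of the table.

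The study sequenced RNA of whole AB (wild type) larvae collected at 120 hours post fertilization (hpf) and asked, by its title, whether methyl-, ethyl- and propylparaben (MtP, EtP and PrP) differ in how they act on the developing nervous system. Parabens are esters of p-hydroxybenzoic acid used as preservatives, and the alkyl chain grows from methyl to propyl. There were 10 groups of 3 libraries, namely Control and each compound at the labels BMD5, BMD5/10 and BMD5/50. No concentration in the sources used here stands behind these labels, so a shared label need not mean a shared concentration, and comparisons between compounds match labels only. All groups shared the strain, the stage and the whole body as tissue. Nothing in the labels says that the 3 libraries of a group came from separate clutches. The p-values therefore reflect the spread among these libraries alone, which may be technical.

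Myelin is the membrane that oligodendrocytes in the brain and spinal cord, and Schwann cells in peripheral nerves, wrap around axons. In fish, proteolipid protein (plp1a, plp1b), myelin basic protein (mbpa, mbpb) and myelin protein zero (mpz) are its main structural proteins, and mpz is part of central as well as peripheral myelin. Olig2 and Sox10 act early in the oligodendrocyte lineage, and Myrf is needed for myelin gene expression in the central nervous system. Zebrafish myelination is under way at the stage sampled.

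Libraries held between 9711814 and 24468093 reads, and the 9 genes together took 0.018% to 0.0318% of them. The libraries numbered 1 stood apart from those numbered 2 and 3 in every group. In a fit of group and library number, 10461 of 18543 genes differed between number 1 and the mean of numbers 2 and 3 (edgeR, adjusted p under 0.05), against 16 between numbers 2 and 3. Values are from all libraries unless the libraries numbered 1 are said to be left out. Levels per library are in CPM, read counts scaled to a common library size, with TMM factors. Levels between genes are compared only in the authors' deposited TPM, which account for transcript length, summed over a gene's transcripts.

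In Control larvae mbpb had the highest TPM of the 9, at 79.6 ± 13.4 (SD, n = 3), followed by mbpa at 41.8 ± 5.54 and plp1b at 22.2 ± 5.15, and no libraries of these neighbours overlapped. The next were olig2 at 11.4 ± 2.86 TPM and mpz at 7.28 ± 2.58, whose ranges overlapped. They were followed by sox10 at 3.34 ± 0.28 TPM, then plp1a at 2.17 ± 0.50 and olig1 at 1.84 ± 0.22, the last pair overlapping. At 0.05 ± 0.05 TPM, myrf was near the limit of detection, with 0 to 6 reads in the Control libraries and at most 12 in any library. The mbpb value sums transcripts of different kinds. In Control mbpb-204, annotated as a processed transcript, held a mean of 36.5 TPM. The protein-coding mbpb-205, mbpb-203, mbpb-202 and mbpb-201 held 16.7, 15.5, 6.94 and 3.95 TPM. The rank of mbpb is that of all its transcripts summed.

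No treated group differed from Control in any of the 9 genes at an adjusted p under 0.05 in edgeR's quasi-likelihood test of all 30 libraries, and the same held for all 18543 genes (0 called in each of 9 comparisons, 0%). The smallest adjusted p of a member over the 24 comparisons made was 0.68, for plp1b between EtP BMD5/50 and MtP BMD5/50. The values leaned one way with EtP: all 9 genes had a higher fitted level than Control at each of its 3 labels, with medians on the log2 scale of 0.34, 0.50 and 0.56 at BMD5, BMD5/10 and BMD5/50. The median over all tested genes was 0.01, 0.00 and 0.01 in the same comparisons, with 52.6%, 50.9% and 51.5% of genes higher than Control. The 9 include myrf, with 0 to 12 reads per library, and the medians at EtP BMD5 and BMD5/10 were the values of myrf itself. It enters every count and median of the 9 given here. At EtP BMD5/50 and at PrP BMD5, where it stood at 1.79, myrf lay above the median and so raised it. Medians without myrf are not given. The differences of plp1a, mbpb, olig2 and sox10 were at most 0.22, 0.23, 0.31 and 0.26 in any treated group. With MtP, 7, 9 and 7 of the 9 were higher in the same order of labels, with medians of 0.06, 0.24 and 0.22, and with PrP 7, 8 and 8, with medians of 0.32, 0.28 and 0.24. Of all genes, 49.4%, 49.6% and 49.6% were higher with MtP and 51.4%, 51.5% and 52.2% with PrP. Without the libraries numbered 1, 6, 8 and 8 of the 9 were higher at the EtP labels, with medians of 0.13, 0.39 and 0.50, and in the EtP average 8 were, with a median of 0.24 against 0.49 with all libraries. The gene that turned in that average was olig2, at -0.03 ± 0.12. With MtP 7, 8 and 7 were then higher, with medians of 0.04, 0.24 and 0.30, and with PrP 7 at each label, with medians of 0.35, 0.28 and 0.295. Single libraries also moved the medians. Leaving out Control library 1 gave 0.16 at EtP BMD5 and 0.26 at EtP BMD5/10 and in the average, and leaving out library 3 of the treated group gave 0.24 at EtP BMD5/10, 0.35 at EtP BMD5/50, 0.15 at MtP BMD5/10 and 0.09 at PrP BMD5. The median at EtP BMD5/50 was 0.37 without Control library 3, and that at PrP BMD5/50 was 0.05 without its library 2. At MtP BMD5 the median ran from 0.0036 to 0.14 over the omission of single libraries. These comparisons share the Control libraries. In whole larvae, fewer or more cells of a type and less or more RNA per cell cannot be told apart.

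**Figure D1:**
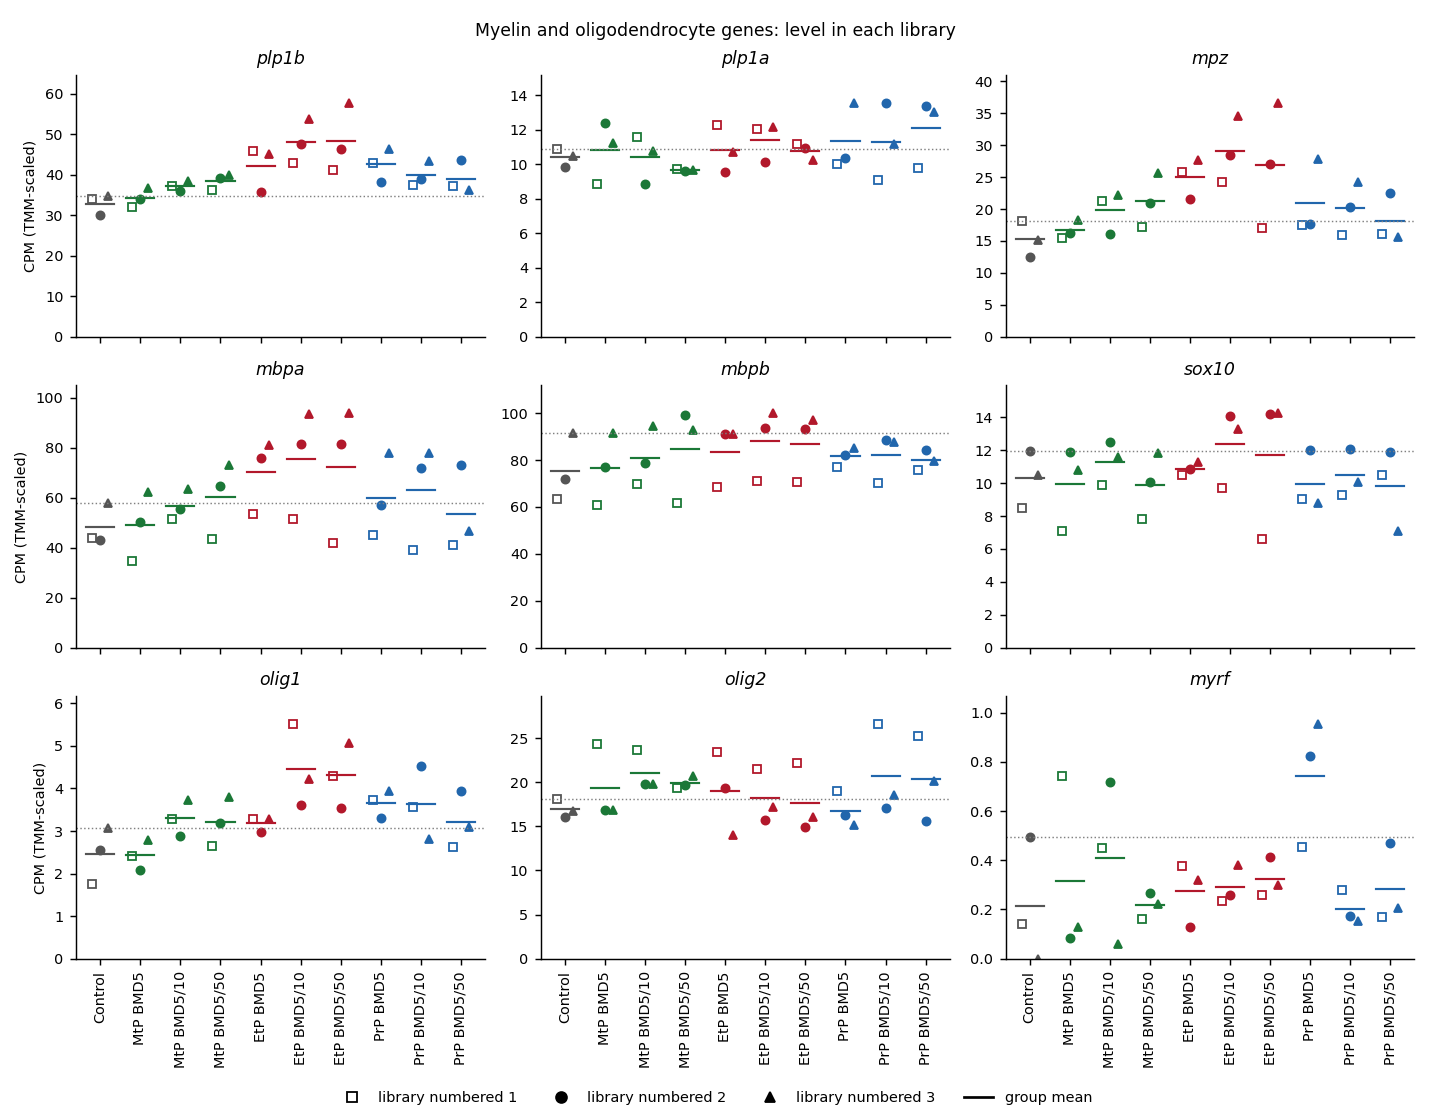
Level of each gene in each of the 30 libraries, in CPM after TMM scaling (y axis, from 0), by group (x axis). Symbols mark the library number, short lines the group mean and the dotted line the highest Control library. The plp1b libraries of 8 of the 9 treated groups lie above every Control library. These groups share the Control libraries, and how many other genes do so was not counted. Values of mbpa, mbpb and sox10 are lower in most open squares, the libraries numbered 1.

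In the fit plp1b, mbpa, mbpb and mpz were each higher than Control in 9 of 9 treated groups. Of the structural genes, plp1b had all its libraries above every Control library in the most groups. This gene encodes the proteolipid that joins the outer faces of the myelin membrane. Its level was 34.0, 29.99 and 34.7 CPM in the 3 Control libraries, in the order of their numbers. With EtP it was 45.8, 35.8 and 45.2 CPM at BMD5, 43.0, 47.5 and 53.7 CPM at BMD5/10, and 41.1, 46.3 and 57.8 CPM at BMD5/50. All 9 EtP libraries were above the highest Control library, as were those of 0.48% of all genes. The fitted log2 differences from Control were 0.36 ± 0.12 (SE) at BMD5, 0.55 ± 0.12 at BMD5/10 and 0.56 ± 0.12 at BMD5/50, and 0.49 ± 0.10 averaged over the 3 labels. These had unadjusted p-values of 0.00782, 0.000185, 0.000146 and 9.05e-05 in edgeR, and adjusted p-values of 0.999 or more. With the library number added to the fit as a block, the average had an adjusted p of 0.142 (edgeR).

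With PrP, plp1b was at 43.0, 38.3 and 46.5 CPM at BMD5, 37.6, 39.0 and 43.3 CPM at BMD5/10 and 37.3, 43.5 and 36.2 CPM at BMD5/50. These 9 libraries were also all above the highest Control library, as were those of 0.25% of all genes. The averaged log2 difference was 0.30 ± 0.10 (unadjusted p = 0.00782, edgeR). With MtP the levels were 32.0, 33.9 and 36.7 CPM at BMD5, 37.3, 36.0 and 38.5 CPM at BMD5/10 and 36.1, 39.2 and 40.0 CPM at BMD5/50. Here the BMD5 libraries overlapped Control and the others lay just above it, with an averaged log2 difference of 0.15 ± 0.10 (unadjusted p = 0.147, edgeR). In all, every library of a treated group was above every Control library in 8 of 9 groups for plp1b. Among all tested genes this was so for 3.17% at EtP BMD5, 3.31% at EtP BMD5/10, 3.78% at EtP BMD5/50, 3.61%, 3.45% and 2.13% at the same labels of PrP, and 3.09%, 4.81% and 6.8% at those of MtP, where plp1b met it at the lower pair of labels. Against the Control library of the same number, plp1b was higher in 26 of 27 treated libraries. The 8 groups and these 27 differences share the Control libraries, so neither count is of independent comparisons. How many other genes reach either count was not counted.

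The other proteolipid gene, plp1a, stayed near its Control level in the fit. Its 30 libraries ran from 8.84 to 13.6 CPM, against 9.83 to 10.9 CPM in Control, and averaged log2 differences were -0.02 ± 0.13 for MtP, 0.08 ± 0.13 for EtP and 0.15 ± 0.13 for PrP. At MtP BMD5/50 its 3 libraries, at 9.74, 9.61 and 9.69 CPM, all lay below Control, as did those of 4.56% of all genes.

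The gene mpz encodes an adhesion protein of compact myelin. It was at 18.1, 12.6 and 15.2 CPM in Control. With EtP it was at 25.8, 21.6 and 27.7 CPM at BMD5, 24.2, 28.5 and 34.6 CPM at BMD5/10 and 17.0, 27.1 and 36.7 CPM at BMD5/50. At BMD5 and BMD5/10 every library was above Control, as were those of 3.17% and 3.31% of all genes. At BMD5/50 only the library numbered 1 fell within the Control range. The log2 differences were 0.71 ± 0.24, 0.93 ± 0.24 and 0.82 ± 0.24, the largest of the structural genes at each EtP label, with unadjusted p-values of 0.0078, 0.000855 and 0.00251 (edgeR). Leaving out library 3 of EtP BMD5/50 gave 0.52 there. With MtP mpz was at 15.5, 16.3 and 18.3 CPM at BMD5, 21.2, 16.1 and 22.2 CPM at BMD5/10 and 17.1, 20.9 and 25.6 CPM at BMD5/50. With PrP it was at 17.5, 17.6 and 27.8 CPM, 15.9, 20.4 and 24.2 CPM and 16.1, 22.5 and 15.7 CPM in the same order of labels. Each of these 6 groups overlapped Control, and the averaged differences were 0.32 ± 0.20 for MtP and 0.36 ± 0.20 for PrP.

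The basic protein genes mbpa and mbpb encode the cytoplasmic proteins that hold the inner faces of the myelin membrane together. The Control libraries had 43.8, 43.1 and 57.8 CPM of mbpa. With EtP it was at 53.7, 76.1 and 81.0 CPM at BMD5, 51.6, 81.5 and 93.4 CPM at BMD5/10 and 41.9, 81.6 and 93.8 CPM at BMD5/50. The EtP libraries numbered 2 and 3 were all above every Control library, and those numbered 1 were within or below the Control range. Fitted log2 differences were 0.54 ± 0.31, 0.65 ± 0.31 and 0.59 ± 0.31, with unadjusted p-values of 0.0966, 0.0504 and 0.0729 (edgeR), and the value at BMD5/50 was 0.35 without library 3 of that group. With the library number added to the fit as a block they were 0.52 ± 0.17, 0.60 ± 0.17 and 0.52 ± 0.17. The unadjusted p-values were then 0.00504, 0.00142 and 0.00459 and the adjusted p-values 0.801, 0.19 and 0.442 (edgeR). With MtP mbpa was at 34.6, 50.4 and 62.3 CPM at BMD5, 51.4, 55.5 and 63.5 CPM at BMD5/10 and 43.3, 64.7 and 73.1 CPM at BMD5/50, and with PrP at 45.3, 57.2 and 77.9 CPM, 39.05, 71.9 and 78.1 CPM and 41.3, 73.2 and 46.8 CPM. All 9 treated groups overlapped Control, and the library numbered 1 was the lowest of its group in each of them. Its paralog mbpb had 63.2, 71.7 and 91.6 CPM in Control and 60.8 to 99.8 CPM in the treated libraries, and its averaged differences were 0.09 ± 0.15 for MtP, 0.19 ± 0.16 for EtP and 0.10 ± 0.15 for PrP. The 95% interval of the EtP average ran from -0.13 to 0.51.

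Among the transcription factors other than myrf, olig1 had the largest averaged difference from Control for each compound. In the mouse its product acts in oligodendrocyte maturation. It had few reads, 25 to 119 per library. In Control it was at 1.75, 2.56 and 3.06 CPM, and with EtP at 3.29, 2.97 and 3.28 CPM at BMD5, 5.51, 3.61 and 4.23 CPM at BMD5/10 and 4.30, 3.55 and 5.07 CPM at BMD5/50. All libraries of EtP BMD5/10 and BMD5/50 were above every Control library, as were those of PrP BMD5 (3.74, 3.30 and 3.93 CPM). Among all genes this was so for 3.31%, 3.78% and 3.61% in the same order of groups. The other PrP libraries had 3.57, 4.53 and 2.80 CPM at BMD5/10 and 2.62, 3.94 and 3.09 CPM at BMD5/50, and the MtP libraries 2.08 to 3.80 CPM, all of these groups overlapping Control. The log2 differences with EtP were 0.37 ± 0.24, 0.85 ± 0.23 and 0.81 ± 0.23, with unadjusted p-values of 0.129, 0.00122 and 0.00183 (edgeR). Averaged over labels they were 0.27 ± 0.20 for MtP, 0.68 ± 0.20 for EtP and 0.51 ± 0.20 for PrP. Without the libraries numbered 1, which include the lowest Control value, the EtP differences were 0.13 ± 0.29, 0.47 ± 0.28 and 0.61 ± 0.28 at the 3 labels and 0.41 ± 0.24 in the average.

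The neighbouring gene olig2, which specifies both oligodendrocyte precursors and motor neurons, had 18.2, 16.1 and 16.8 CPM in Control and 14.1 to 26.6 CPM in the treated libraries. Its averaged log2 differences were 0.24 ± 0.17 for MtP, 0.10 ± 0.17 for EtP and 0.18 ± 0.17 for PrP. Every library was above Control at MtP BMD5/10 and at MtP BMD5/50, as were those of 4.81% and 6.8% of all genes. The deposited table places olig1 at 32728653 to 32730487 and olig2 at 32751428 to 32753535 of chromosome 9, on the same strand, in a genome build that the sources used here do not name. The values of sox10, a factor of the neural crest, Schwann cells and oligodendrocytes, were 8.49, 11.98 and 10.5 CPM in Control and 6.63 to 14.2 CPM in the treated libraries, with averaged differences of 0.00 ± 0.21, 0.18 ± 0.21 and -0.03 ± 0.21 for MtP, EtP and PrP.

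The gene myrf gave values that its depth cannot support. It reached the CPM that the filter asks for, 0.756, in 3 of 30 libraries, and 2 of these were of PrP BMD5, so that it was tested mainly through that group. Its level there was 0.456, 0.824 and 0.953 CPM, against 0.14, 0.496 and 0 CPM in Control. The log2 difference was 1.79 ± 0.78 (unadjusted p = 0.0313, edgeR) and is not read as a result, since the gene had 0 to 12 reads per library.

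**Figure D2:**
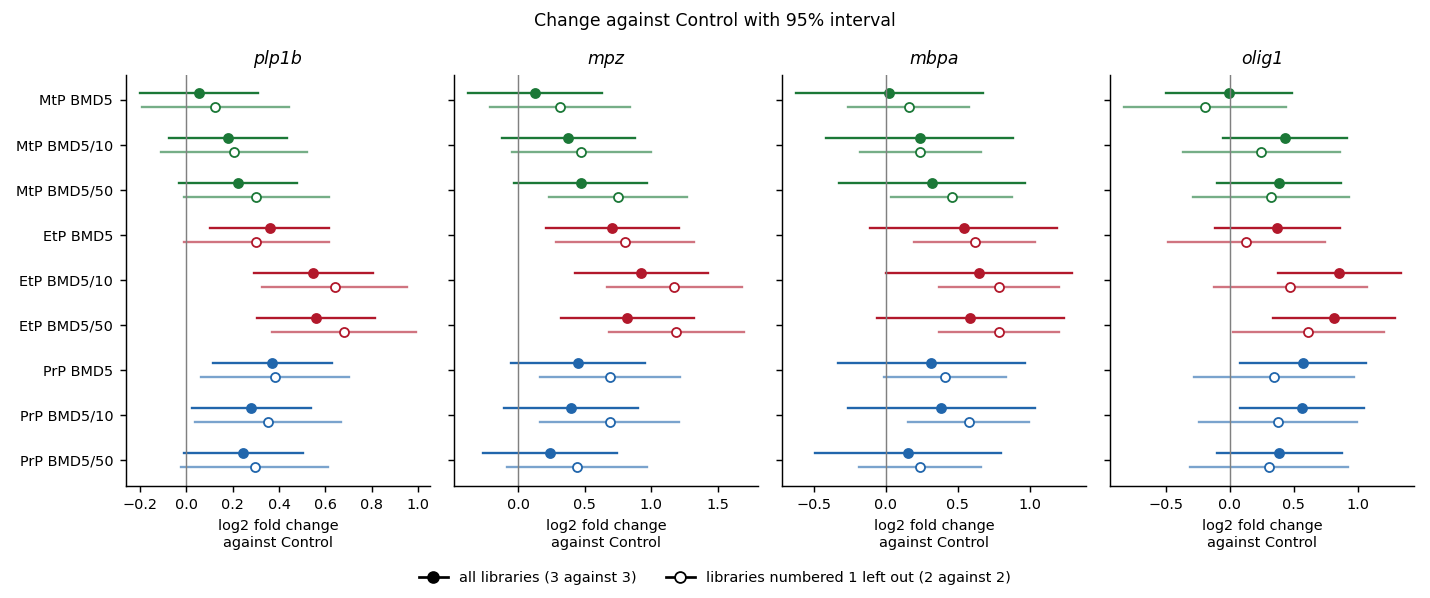
Log2 fold change against Control (x axis) with its 95% interval for plp1b, mpz, mbpa and olig1 in the 9 treated groups (y axis). Filled circles use all libraries, open circles leave out those numbered 1. The intervals of plp1b lie above 0 at all 3 labels of EtP with all libraries, and those of mpz lie above 0 there in both fits.

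At an unadjusted p under 0.05 in edgeR, plp1b and mpz were higher than Control at EtP BMD5, a share of all genes of 1.33% being higher at that threshold. At EtP BMD5/10 and BMD5/50 plp1b, mpz and olig1 were, against 2.8% and 1.99% of all genes. At PrP BMD5 these were plp1b and olig1 (1.13% of all genes), leaving aside myrf, which was tested mainly through that group, and at PrP BMD5/10 plp1b and olig1 (1.23%). None of the 9 met it at PrP BMD5/50 (0.706% of all genes) or at MtP BMD5, BMD5/10 and BMD5/50 (0.733%, 1.1% and 2.01%).

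The compounds were set against each other at the same label. With EtP against MtP the log2 difference of plp1b was 0.30 ± 0.12 at BMD5, 0.37 ± 0.12 at BMD5/10 and 0.34 ± 0.12 at BMD5/50, with unadjusted p-values of 0.0213, 0.00649 and 0.0119 (edgeR). For mpz it was 0.58 ± 0.24, 0.55 ± 0.24 and 0.35 ± 0.24. The values at BMD5/50 leaned on single libraries, since leaving out library 3 of EtP gave 0.05 for mpz and 0.17 for plp1b, and mpz was at 0.20 without library 1 of MtP and 0.58 without library 1 of EtP. Without all libraries numbered 1, plp1b was at 0.18 ± 0.15, 0.43 ± 0.15 and 0.38 ± 0.14 and mpz at 0.49 ± 0.24, 0.70 ± 0.23 and 0.44 ± 0.23. Every EtP library was above every MtP library for mpz and olig1 at BMD5 (3.71% of all genes), for plp1b and mpz at BMD5/10 (3.1%) and for plp1b and plp1a at BMD5/50 (5.13%). Between PrP and MtP at BMD5, plp1b differed by 0.32 ± 0.12 and olig1 by 0.58 ± 0.24, again without overlap (3.25% of all genes). Between PrP and EtP at BMD5, olig1 was above without overlap (2.93% of all genes), with a fitted difference of 0.20. The gap was narrow, the lowest PrP library being at 3.296 CPM and the highest EtP library at 3.285 CPM. In that comparison myrf was also above, at 0.456 against 0.375 CPM, which its depth cannot support. Between PrP and MtP at BMD5/50 plp1a was above without overlap (2.23%). No member was for PrP against MtP at BMD5/10 (2.09%) or PrP against EtP at BMD5/10 (1.86%) and BMD5/50 (2.07%). The differences of mpz between PrP and EtP were -0.26 ± 0.24 at BMD5, -0.53 ± 0.24 at BMD5/10 and -0.58 ± 0.24 at BMD5/50, and those of plp1b 0.01 ± 0.12, -0.27 ± 0.12 and -0.31 ± 0.12. With library 3 of EtP BMD5/50 left out, these were -0.28 for mpz and -0.15 for plp1b at BMD5/50, and between -0.51 and -0.15 for mpz at BMD5 over the omission of single libraries. Without the libraries numbered 1 mpz was at -0.11 ± 0.24, -0.49 ± 0.23 and -0.75 ± 0.24. In the fit of all libraries no difference between compounds passed the adjusted threshold for a member or for any other gene (0%). The 95% interval for plp1b at BMD5 between PrP and EtP ran from -0.24 to 0.27, so a difference of that size in either direction remains possible. Nor did BMD5 differ from BMD5/50 of the same compound in any member (0% of all genes). For EtP the median of the 9 was -0.11, with olig1 at -0.44 ± 0.23 and below BMD5/50 in all 3 libraries, as were 2.11% of all genes.

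Leaving out the libraries numbered 1 brought calls. With 2 libraries a group, mpz rose with EtP BMD5/10 by 1.18 ± 0.24 on the log2 scale (edgeR, adjusted p = 0.0192) and with EtP BMD5/50 by 1.19 ± 0.24 (adjusted p = 0.0334). The omission took out the highest Control value of mpz, 18.1 CPM. It also took out the lowest mpz values at EtP BMD5/10 and BMD5/50, 24.2 and 17.0 CPM, and so widened the difference from both sides. At the same labels plp1b rose by 0.64 ± 0.15 (adjusted p = 0.0341) and 0.68 ± 0.15 (adjusted p = 0.0478). Averaged over the EtP labels, mpz rose by 1.06 ± 0.21 (adjusted p = 0.0155), plp1b by 0.54 ± 0.12 (adjusted p = 0.0297) and mbpa by 0.73 ± 0.17 (adjusted p = 0.0297). For these 3 genes all 6 EtP libraries numbered 2 and 3 were above both Control libraries of those numbers. The genes were picked by their calls in the same libraries, so this separation adds no support. How many other genes do so was not counted.

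These calls were 2 of 9 members at EtP BMD5/10, where 2.08% of 18855 genes were called, 2 of 9 at EtP BMD5/50 (0.636% of genes) and 3 of 9 in the EtP average (3.09% of genes). At EtP BMD5 0 of 9 members and 0.361% of genes were called, with mpz at 0.80 ± 0.24 (adjusted p = 0.196) and mbpa at 0.62 ± 0.20 (adjusted p = 0.214). No member was called for MtP or PrP, nor was any gene (0%). Between compounds 0 members were called, where 0.334% of genes were for EtP against MtP at BMD5, 2.56% at BMD5/10, and 0% in each of the other 7 comparisons. For MtP the averaged values without the libraries numbered 1 were 0.51 ± 0.21 for mpz and 0.21 ± 0.12 for plp1b, and for PrP 0.61 ± 0.21 and 0.34 ± 0.12. Over their other alternatives the adjusted p-values of the called results reached 1.

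Markers of other tissues moved in the same libraries. In the EtP average without the libraries numbered 1, 6 of 7 liver genes were called higher, with a median log2 difference of 2.75 over the 7. The summed level of the liver list was 1335 to 2122 CPM in the EtP libraries numbered 2 and 3, at most 274 CPM in the Control libraries of those numbers, 460 to 1388 CPM in those of PrP, 315 to 689 CPM in those of MtP and 94.8 to 150 CPM in the EtP libraries numbered 1. Of 6 tested exocrine pancreas genes 1 was called higher. Of 15 neuronal genes 3 were called higher and 1 lower, of 10 genes of radial glia and astroglia 0, with medians of -0.11 and -0.09. The summed level of the neuronal list was 2330 to 2480 CPM in the EtP libraries numbered 2 and 3 and 2552 to 2660 CPM in those of Control. The part of these tissues in the values of mpz, plp1b and mbpa was not tested.

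The library number itself went with large differences in members, fitted across the 10 groups together. In the libraries numbered 1, mbpa, mbpb and sox10 were lower than in the mean of numbers 2 and 3, with log2 differences of -0.61 ± 0.08, -0.36 ± 0.05 and -0.37 ± 0.09. The adjusted p-values (edgeR) were 1.42e-06, 1.55e-06 and 0.00123. The transcription factor olig2 was higher by 0.36 ± 0.06 (adjusted p = 2.5e-05), and mpz was lower, at -0.22 ± 0.09 (adjusted p = 0.0487), a call lost with RLE scaling and with no filter on low counts. In all, 5 of 9 members were called, about the share of all genes that were, 56.4%, so this is not particular to the members. By contrast plp1b differed by -0.08 ± 0.05, plp1a by -0.07 ± 0.08 and olig1 by -0.07 ± 0.11, which did not pass, and neither did myrf. In the same fit all 7 liver, all 6 exocrine pancreas and all 6 skeletal muscle genes tested were lower in the libraries numbered 1, and 10 of 15 neuronal genes were higher and 3 lower. What the number stands for is not given by the labels, and its cause was not tested.

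**Figure D3:**
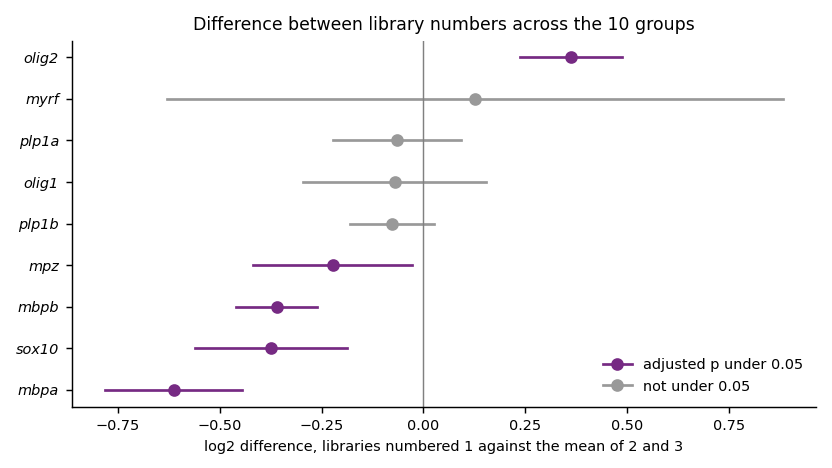
Log2 difference between the libraries numbered 1 and the mean of those numbered 2 and 3 across the 10 groups (x axis), with 95% intervals, for the 9 genes (y axis). Purple marks an adjusted p under 0.05. The values run from -0.61 for mbpa to 0.36 for olig2.

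Other genes of myelin and its cells were taken from a list of 55, of which 42 could be tested. In the test of all libraries 0 of 42 were called in any comparison (0%), the smallest adjusted p being 0.674. At an unadjusted p under 0.05 against Control, 1, 3 and 1 of them were higher at the 3 labels of EtP in the order BMD5, BMD5/10 and BMD5/50 and 0 were lower. With MtP 0, 1 and 2 were higher and 0, 0 and 1 lower, and with PrP 1, 0 and 0 higher and 0, 0 and 1 lower. Medians of the 42 lay between -0.07 and 0.10 over the 9 comparisons. Of the 42, 15 were genes of myelin structure and compaction. With EtP 11, 13 and 13 of these 15 were higher than Control, with medians of 0.22, 0.20 and 0.16. Of all genes 52.6%, 50.9% and 51.5% were higher there. With MtP 5, 8 and 6 of the 15 were higher, with medians of -0.05, 0.04 and -0.09. With PrP 12, 9 and 7 were, with medians of 0.11, 0.09 and -0.04. The 15 were not tested as a set.

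The listed genes named here were those called or those with the smallest unadjusted p in a comparison. The claudin gene cldnk, a tight junction protein of fish myelin, had a log2 difference of 0.65 ± 0.25 in the EtP average (13.6 ± 3.74 CPM, n = 9, against 8.67 ± 0.52 CPM in Control, n = 3; edgeR adjusted p = 1). Without the libraries numbered 1 cldnk rose by 0.78 ± 0.19 (adjusted p = 0.0368), the 1 gene of the list called there. In that average 3.09% of 18855 genes were called, so the 1 call is not read as a result about the list. The tetraspanin gene tspan2b stood at 1.08 ± 0.37 at EtP BMD5/10, and at 0.62 ± 0.37 at EtP BMD5. The choline phosphodiesterase gene enpp6, a marker of newly forming oligodendrocytes in the mouse, was above Control at every label of every compound, in the fit, between 0.24 ± 0.17 at EtP BMD5 and 0.46 ± 0.17 at PrP BMD5. These differences share the Control libraries, so they are not independent, and how many other genes do so was not counted. The lineage factor gene nkx2.2b stood at 0.77 ± 0.35 at EtP BMD5, 0.72 ± 0.35 at MtP BMD5/50 and 0.49 ± 0.35 at MtP BMD5. In these comparisons 5, 8 and 9 of the 10 tested lineage factor genes other than members were higher, with medians of 0.01, 0.03 and 0.13. Their summed level was 324 to 356 CPM in the EtP libraries numbered 2 and 3, against 380 to 398 CPM in Control. In the libraries numbered 1 it was 472 to 481 CPM with EtP and 445 CPM in Control. This sum mostly follows its highest genes and does not describe the lineage factors one by one. By library number, tcf7l2 had a mean of 156.9 to 204.5 CPM and zeb2a of 59.3 to 79.4 CPM. By the same choice mag, which encodes a glycoprotein of myelin next to the axon, stood at 0.68 ± 0.45 at PrP BMD5. The receptor gene erbb3b, needed for Schwann cell development, stood at -0.98 ± 0.58 at MtP BMD5/10, and the axonal adhesion gene cntn2 at -1.16 ± 0.44 at PrP BMD5/50 and -0.71 ± 0.42 at PrP BMD5/10. None of these differences passed when adjusted over all genes in the fit of all libraries. Several of the genes had low levels. Mean CPM by library number was 0.87 to 0.90 for cntn2, 1.0 to 1.1 for nkx2.2b and 1.32 to 1.47 for mag. It was 0.94 to 2.03 for erbb3b and 2.61 to 3.57 for tspan2b, so depth limits these values.

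Several members have more than 1 annotated transcript, and the reads of a gene were split between them in ways that varied among libraries. The 4 transcripts of plp1b lie on the minus strand of chromosome 5 between 23268121 and 23280098. Of its reads over all libraries 52.2% were assigned to plp1b-203, 31.0% to plp1b-204, 10.6% to plp1b-201 and 6.197% to plp1b-202. The share of plp1b-201 was 2.06%, 7.16% and 4.30% in the Control libraries. With EtP it was 8.61%, 19.7% and 10.97% at BMD5, 12.3%, 22.2% and 22.0% at BMD5/10 and 7.95%, 14.3% and 18.8% at BMD5/50. All 9 EtP libraries were above the highest Control share, on 38 to 255 reads per library against 10 to 26. How many other transcripts did so was not counted. Reads assigned to plp1b-201 varied within groups, being 66 in library 2 and 0 in library 3 of MtP BMD5/10. With MtP the share ran from 0% to 16.5% and with PrP from 1.68% to 16.2%, across the Control range. In edgeR's test of transcripts plp1b-201 had a log2 difference of 2.68 ± 1.09 at EtP BMD5/10 (unadjusted p = 0.0218, adjusted p = 1). The authors' deposited table gives 2.69 for the same comparison, with a q-value of 0.000925.

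In the authors' deposited table, 1 other transcript of a member has a q-value under 0.05, mbpa-207 at EtP BMD5/10, with a log2 fold change of 1.54 and a q-value of 0.0343. The authors' calls at EtP BMD5/10 were thus 2 of 34 member transcripts, where 51 of all 59876 transcripts had a q-value under 0.05. In each other treated group 0 of the 34 did, and 22 to 59 of all transcripts did. The test here gave mbpa-207 1.53 ± 0.49 (unadjusted p = 0.0051, edgeR) and called 0 of the 22 member transcripts tested in any of the 9 treated groups against Control (0% to 0.00377% of 26501 transcripts). The share of mbpa reads assigned to mbpa-202 was 15.2%, 11.1% and 9.63% in the Control libraries. With EtP its mean share was 19.9% ± 2.88 (SD, n = 3) at BMD5, 22.5% ± 8.17 at BMD5/10 and 20.6% ± 10.9 at BMD5/50. That of the main transcript mbpa-201 was 72.0% ± 0.77 in Control and 62.8% ± 5.45, 56.5% ± 8.18 and 60.9% ± 15.4 in the EtP groups. At the 2 lower labels the EtP libraries numbered 1 had mbpa-202 shares of 13.6% and 8.01%, within or below the Control range of 9.63% to 15.2%.

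The 5 transcripts of mbpb, on the minus strand of chromosome 16, fall into 2 spans that share 1481 bases. Those of mbpb-202 and mbpb-205 lie upstream, between 6820448 and 6849781, and those of mbpb-201, mbpb-203 and mbpb-204 downstream, between 6803342 and 6821928. In the mouse the Mbp gene has an upstream start from which the Golli products are made, outside myelin as well as in it. The downstream transcripts took 42.4% ± 6.96 (SD, n = 3) of the mbpb reads in Control, and 46.7% ± 7.47, 50.4% ± 9.89 and 52.9% ± 4.67 at the EtP labels BMD5, BMD5/10 and BMD5/50. Summed by span, which was decided on with the data in view, the downstream transcripts had a log2 difference of 0.42 ± 0.26 in the EtP average and the upstream ones -0.02 ± 0.11. For PrP these were 0.28 ± 0.26 and -0.05 ± 0.11, and for MtP 0.17 ± 0.25 and 0.03 ± 0.11. None was called in edgeR, with adjusted p-values of 0.9997 or more. The difference between the spans was not tested.

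**Figure D4:**
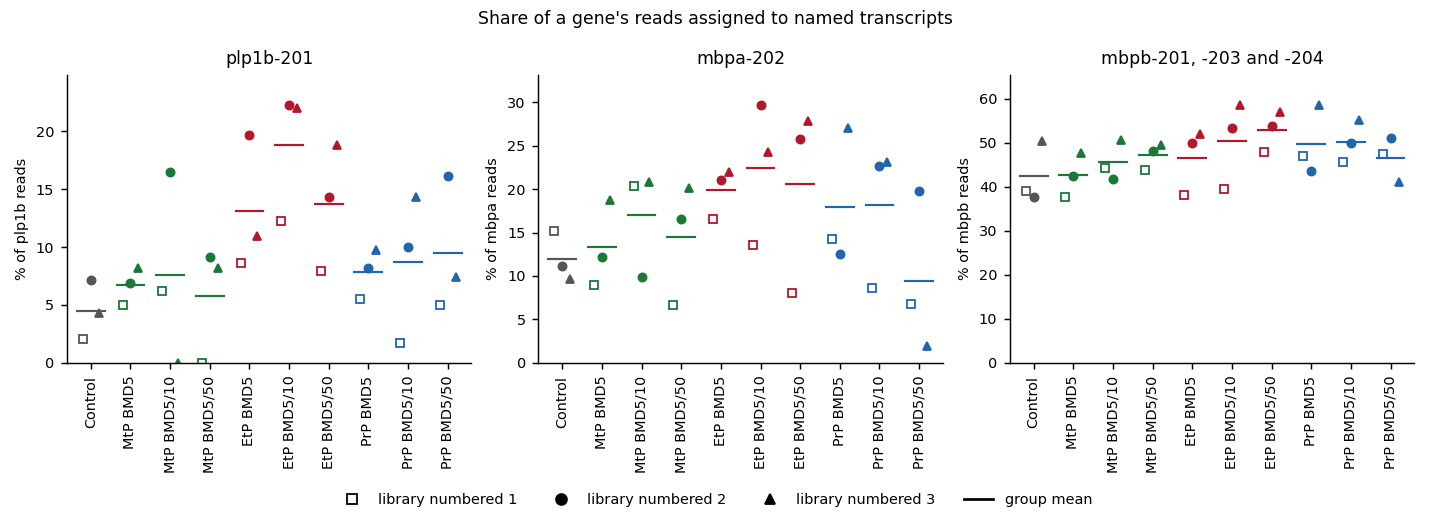
Share of a gene's reads assigned to plp1b-201, mbpa-202 and the 3 downstream transcripts of mbpb (y axes, in % of the gene's reads, from 0) in each library, by group (x axis). Symbols mark the library number and lines the group mean. The plp1b-201 share is above the highest Control library, 7.16%, in all 9 EtP libraries, and how many other transcripts do so was not counted.

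Of the structural genes, mbpa, mpz and plp1b were the most closely correlated between libraries within groups. After group means and library numbers were removed, residual log2 CPM over the 30 libraries gave Pearson's r of 0.89 for mbpa with mpz, 0.82 for mpz with plp1b and 0.75 for mbpa with plp1b. Spearman's rho was 0.87, 0.76 and 0.73, and r was 0.85, 0.75 and 0.64 without the 2 libraries farthest from the median. For mbpb with plp1b, mbpa and mpz r was 0.29, 0.41 and 0.21, for plp1a with the same 3 genes 0.25, 0.30 and 0.34, and for plp1a with mbpb -0.18. The transcription factor olig2 went the other way, with r of -0.44, -0.48 and -0.40 to plp1b, mbpa and mpz, and sox10 had 0.59, 0.51 and 0.51. Without the 2 farthest libraries these were -0.32, -0.37 and -0.33 for olig2 and 0.52, 0.36 and 0.22 for sox10. With the same 3 genes olig1 had r between 0.00 and 0.06. These are descriptions of libraries that share whole-larva composition, scaling and depth, and no test is attached to them.

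**Figure D5:**
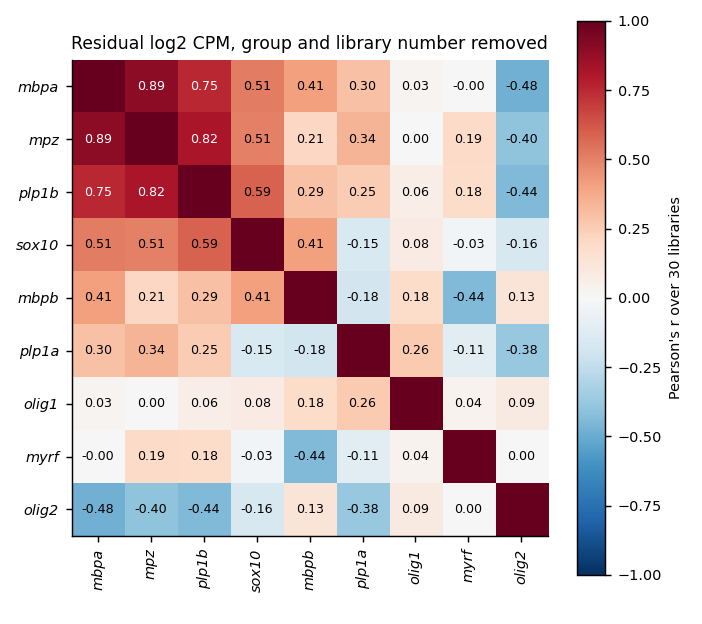
Pearson's r between the residual log2 CPM of each pair of the 9 genes over 30 libraries, with group means and library numbers removed (colour scale from -1 to 1). The highest value is that of mbpa with mpz, 0.89, and olig2 is negative with plp1b, mbpa and mpz.

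By the same measure the genes outside the list of myelin and lineage genes most like mbpa were lcn15 (r = 0.87), zcchc24 (0.86) and st3gal7 (0.86), with r of 0.92, 0.84 and 0.89 in the log2 CPM before group and number were removed. For mpz they were her4.3 (0.87), hagh (0.87) and slc2a2 (0.85), with 0.39, 0.66 and 0.63 before. For plp1b they were cd226 (0.83), krt1-19d (0.79) and kcnj12b (0.78), with 0.68, 0.52 and 0.51 before, and krt1-19d is on the list of epidermis genes. The median residual r of all tested genes was 0.01 with mbpa, 0.02 with mpz and 0.01 with plp1b, and the 95th percentile 0.60, 0.53 and 0.49. Of the other members, mbpb was most like ndufs7 (0.87; 0.81 before), olig2 like otud5a (0.84; 0.73 before) and plp1a like rnaset2 (0.85; 0.52 before). For sox10 it was pla2g12a (0.76; 0.76 before) and for olig1 g6pc3 (0.73; 0.38 before).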

How the data were processed

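The deposited table holds read counts, RPKM and TPM per transcript for 30 libraries and, for each treated group, the authors' log2 fold change, p-value and q-value, per the file headers. For the aligner, counter, genome build, strandedness and the authors' own test, the sources used here name none. Columns headed PP were matched to the propylparaben titles. Of 59876 transcripts, the deposited counts were summed to 31846 gene symbols, and the deposited TPM and RPKM were summed likewise to give levels.

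Genes passing edgeR's filterByExpr (minimum count 10) were tested with edgeR 4.0.16 in R 4.3.3: TMM scaling, the quasi-likelihood test of 10 group means over 30 libraries, and Benjamini-Hochberg adjustment over all 18543 genes within each of 24 comparisons, threshold 0.05. CPM used a prior count of 2 on the log2 scale. Transcripts (26501 tested) were fitted the same way. With 3 libraries against 3, an exact permutation test cannot go below 0.10, so none is given. Depth was 9711814 to 24468093 reads per library.

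The members and lists were chosen with earlier results of these data known. The text names all 9 members, listed genes called in any comparison of groups, the 2 listed genes of smallest unadjusted p in each comparison against Control, and the genes most correlated with a member. Alternatives were RLE scaling, DESeq2 1.42.0, no filter on low counts, the library number as a block, leaving out each library, and leaving out all libraries numbered 1. Library numbers come from the titles. Deviations from group means correlated above 0.1 for every shared number in 14 of 21 comparisons of group pairs, so the numbers do not pair the samples in all of them. Listed genes bcas1 and lgi4 were not analysed here.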

Additional observations from a re-analysis of the deposited data

How the results depend on the processing

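No gene was called in any comparison of groups under TMM scaling, RLE scaling, DESeq2, no filter, or the omission of any 1 library, and the library number as a block called 1 gene between EtP BMD5/10 and MtP BMD5/10 and 1 gene across all groups. Fitting the replicate block changed no member's call but lowered adjusted p-values. In the EtP average it gave plp1b 0.49 ± 0.09, mpz 0.79 ± 0.17, mbpa 0.55 ± 0.14 and olig1 0.685 ± 0.19. Their adjusted p-values (edgeR) were 0.142, 0.142, 0.184 and 0.195, and those of the other members 0.402 or more. For plp1b the adjusted p was 0.651 in the MtP average and 0.744 in the PrP average (edgeR). Leaving out the libraries numbered 1 moved the counts most: 68, 393 and 120 genes at EtP BMD5, BMD5/10 and BMD5/50, 582 in the EtP average, 63 and 482 for EtP against MtP at BMD5 and BMD5/10, and 256 across all groups. Members called were 2 at EtP BMD5/10, 2 at EtP BMD5/50 and 3 in the average, and transcripts called were 6, 82 and 6 at the labels of EtP, 1 at PrP BMD5/10 and 6 at MtP BMD5/50. These calls rest on 2 libraries a group, and the cause was not tested.

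Several values changed sign, and not all of them were near 0 in the fit of all libraries. In that fit the MtP average of myrf was 0.53 and the EtP average of mbpb 0.19. The MtP average of sox10 was -0.0025 with RLE scaling and -0.0030 with DESeq2. At MtP BMD5, olig1 was 0.0025 with no filter and mbpa -0.014 with the replicate block. Without the libraries numbered 1 the MtP averages of plp1a and myrf were 0.036 and -0.20, and the EtP average of olig2 was -0.029. Counted from mbpb-202 and mbpb-205 alone, an alternative chosen after seeing the data, mbpb was -0.067, -0.079 and -0.0075 at PrP BMD5, BMD5/10 and BMD5/50, -0.0041 and -0.082 at EtP BMD5/10 and BMD5/50, and -0.017 and -0.051 in the EtP and PrP averages.

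Over the omission of single libraries, mbpa ran from -0.18 to 0.23 at MtP BMD5 and from -0.13 to 0.32 at PrP BMD5/50, olig1 from -0.21 to 0.19 and plp1b from -0.0059 to 0.10 at MtP BMD5. The MtP averages ran from -0.024 to 0.26 for mbpb, -0.026 to 1.92 for myrf, -0.056 to 0.025 for plp1a and -0.12 to 0.12 for sox10. The PrP averages ran from -0.019 to 0.27 for mbpb and -0.17 to 0.083 for sox10, and the EtP average of myrf from -0.066 to 1.88. Between PrP BMD5 and EtP BMD5, plp1b ran from -0.10 to 0.076. Depth limits myrf, with 0 to 12 reads per library, and olig1, with 25 to 119 reads per library.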
